A study of Brassica napus with 3 samples.

Results

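Displaced summits are places where both canola lines had a summit, the highest point of a peak of H3K4me3, more than 150 bp and at most 500 bp apart. The lists give no peak extents, so whether both summits belong to the same peak was not tested. Displaced, shifted and moved refer below to this distance only. H3K4me3 is histone H3 trimethylated at lysine 4. Each member is a pair made of a control summit and its nearest PEG1 summit on the same B. oleracea scaffold, where the control summit is in turn the nearest to that PEG1 summit. This rule found 4900 pairs, which hold 4900 of 36371 control summits and 4900 of 40707 PEG1 summits. The members were chosen by the summit positions in both lists, so their distances are a description.

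The libraries came from Brassica napus, an allotetraploid whose C subgenome is related to B. oleracea and whose A subgenome is related to B. rapa. Both lines are listed under the cultivar name L. spp. oleifera (Metzg) Sinsk. f. biennis, were untreated, and gave the fourth leaf at an age of 26 days. One line is an unselected control, which the protocol calls wild-type, and the other is the selected epiline PEG1, so the lines are set apart by selection and no mutation or transgene is named. Native chromatin was cut with micrococcal nuclease, without crosslinking, and precipitated with the same H3K4me3 antibody in both lines. The series asks how the selection bears on the distribution of the mark. Each line is represented by 1 library, so the pairs below have no replicate check and no test between lines was possible. How many plants were pooled is not given in the labels, and the number of reads is unknown. A control-line library without antibody also belongs to the series and was not analysed here.

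In plants, H3K4me3 marks nucleosomes at the start of transcribed genes. Nucleosomes there tend to lie at regular intervals from the start of transcription into the gene, and the interval from one nucleosome to the next is the nucleosome repeat. Micrococcal nuclease cuts the linker DNA between nucleosomes, so native chromatin immunoprecipitation maps a mark at the level of mononucleosomes. A summit that moved by a whole repeat would lie on the neighbouring nucleosome. A repeat of 180 bp, a round value for plants, was used to look for such steps. Neither the sequence nor the gene models of the scaffold build used by the files were used here, so pairs are named by scaffold and by the 1-based positions of both summits.

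Displaced pairs made up 13.5% of the control summits on B. oleracea (95% Wilson interval 13.1 to 13.8%, which like all intervals here covers counting error only) and 12.04% of the PEG1 summits. The rest of the control list divides as follows. A PEG1 summit lay within 150 bp of 28084 control summits, 77.2% of the list. In 132 cases the nearest PEG1 summit was over 150 and up to 500 bp away but nearer to another control summit, so no pair was formed. The nearest PEG1 summit was over 500 bp away for 3241 control summits, and 14 stood on scaffolds without a PEG1 summit. The same rule applied to the B. rapa lists of the same libraries gave 3506 pairs, 12.7% of 27672 control summits (12.3 to 13.07%). The share was therefore a little higher on B. oleracea than on B. rapa, with intervals that did not overlap. They did overlap with a lower limit of 200 bp (9.27 to 9.87% against 8.73 to 9.41%), with nearest summits that need not be mutual (13.5 to 14.2% against 12.8 to 13.6%) and with summits at or above the median score (7.81 to 8.61% against 6.97 to 7.84%). Both references were used for the same libraries, and a read may have supported summits on both, so the B. rapa pairs are not an independent sample.

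The best-scored displaced pairs were among the strongest summits of both lists. The authors' score of a summit is a −log10 significance, and it is read here as the percentile of the summit within its own list, since scores depend on depth, which is unknown here. The pair with the highest lower percentile was on scaffold ERB30013, at 96025 in the control (score 63.2) and at 95871 in PEG1 (score 80.2), a shift of 154 bp. It was also the best-scored pair of the fullest 10 bp bin, that over 150 and up to 160 bp. On ERB29726 the control summit stood at 242977 (62.7) and the PEG1 summit at 242618 (76.9), a shift of 359 bp. On ERB29435 the positions were 719989 (61.4) and 719749 (75.4), 240 bp apart. These summits ranked above percentile 98 in both lines and were nevertheless listed at different places. 

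The other pairs of the best 10 are given as a description, since the rule fixed that each was shifted. The control summit on ERB29432 at 178199 scored 71.3, the highest control score of all displaced pairs, and its PEG1 partner at 178391 scored 74.2. Shifts of 166, 187 and 173 bp were found on ERB29343 (254636 in the control and 254470 in PEG1), ERB29459 (415727 and 415540) and ERB29444 (319468 and 319641). Longer shifts were found on ERB29638 (147457 and 147842, 385 bp), ERB29855 (118839 and 118550, 289 bp) and ERB29501 (742511 and 742912, 401 bp). Of the best 10 pairs, that on ERB29444 was the one with a further summit of either line within 1000 bp of its members.

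The numbers of pairs fell steeply with distance at first and much more slowly beyond about 150 bp. In bins of 10 bp the fall eased gradually from about 100 bp on. Counted over all mutual nearest pairs, 19931 lay up to 50 bp apart, 6019 lay over 50 and up to 100 bp apart and 2134 over 100 and up to 150 bp apart, so each class of 50 bp held 0.302 and then 0.355 times as many pairs as the one before. Over 150 and up to 200 bp there were 1421 pairs, 0.666 times the preceding class. The next classes held 1067, 758, 649, 469, 309 and 227 pairs up to 500 bp, each between 0.659 and 0.856 times its predecessor. The decline went on at a similar pace outside the rule, with 191 pairs over 500 and up to 550 bp and 138 over 550 and up to 600 bp, and 748 pairs in all lay over 500 and up to 1000 bp apart. Inside the rule the median shift was 249 bp, with the quartiles at 193 and 332 bp. The displaced pairs are thus the upper stretch of a continuous distribution, and no gap separates them from the pairs within 150 bp.

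**Figure D1:**
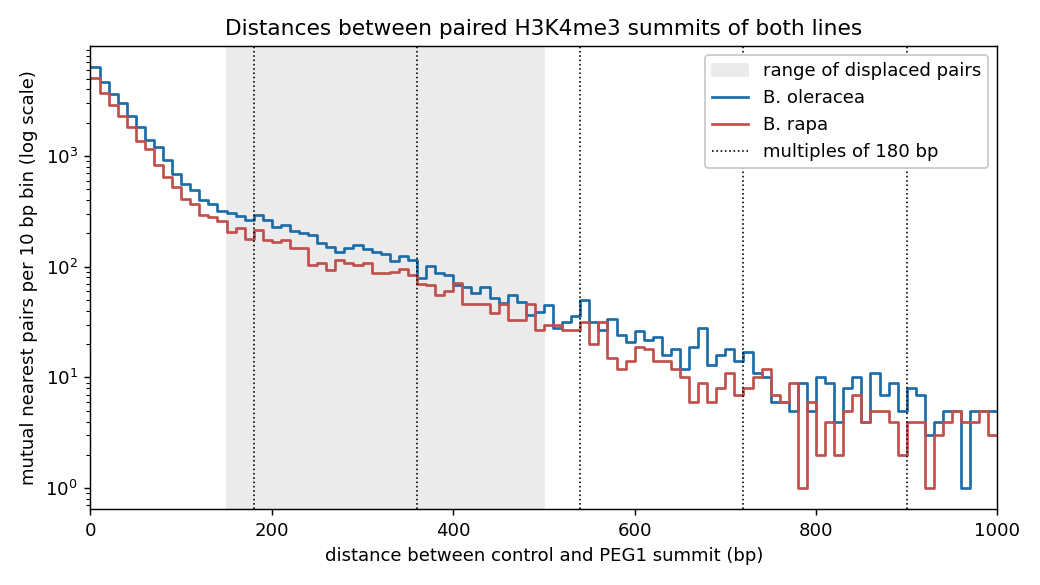
Number of mutual nearest control and PEG1 summit pairs (log axis) against their distance in bins of 10 bp, on B. oleracea and on B. rapa, with the range of the displaced pairs shaded and multiples of 180 bp dotted. The curve bends gradually, from about 100 bp to beyond 150 bp, and runs on without a separate peak. On B. oleracea it goes from 308 pairs in the bin that ends at 160 bp to 39 pairs in the bin that ends at 500 bp.

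In bins of 10 bp the counts declined little between 150 and 200 bp, the stretch that holds the length of 1 repeat. On B. oleracea the decline from 201 to 250 bp was about as small. On B. oleracea the bins that end at 160, 170, 180, 190 and 200 bp held 308, 287, 264, 296 and 266 pairs. The 296 pairs from 181 to 190 bp (95% exact Poisson interval 263 to 332) stood above the 264 of the bin before (233 to 298), with overlapping intervals. The bins from 201 to 250 bp held 226, 236, 210, 200 and 195 pairs. On B. rapa the bin from 181 to 190 bp was likewise above its neighbours on either side, with 213 pairs against 179 and 174 and overlapping intervals. Such a rise on both references was not limited to the length of a repeat. The bin from 211 to 220 bp was also above both neighbours, by less. It held 236 pairs against 226 and 210 on B. oleracea, and 176 against 166 and 147 on B. rapa. A further flat stretch ran from 271 to 320 bp on B. oleracea, with 136, 149, 158, 145 and 137 pairs per bin. It lay between whole repeats of 180 bp and not at one.

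Counts near whole repeats were set against the bands that lie in between. Within 20 bp of 180 bp there were 1113 pairs, against 3373 in the band of equal width around 90 bp and 600 in that around 270 bp, which gives 0.560 times the mean of both (0.524 to 0.599). Around 360 bp there were 421 pairs, against 600 around 270 bp and 220 around 450 bp, or 1.03 times their mean (0.911 to 1.16). On B. rapa the ratios were 0.554 (0.512 to 0.600) and 1.09 (0.944 to 1.25). A mean of both bands is high on a curve that falls and bends, and this weighs most on the band at 90 bp. Against the geometric mean, which a curve falling by a constant factor would match at 1, the ratios on B. oleracea were 0.782 at 180 bp and 1.16 at 360 bp, and on B. rapa 0.778 and 1.21. Near 360 bp the count was therefore level with the mean of its surroundings. It was somewhat above their geometric mean, which was chosen after seeing the data and has no interval. On B. oleracea the ratio to the mean at 2 repeats was 0.923 (0.811 to 1.05) with a repeat of 190 bp. With 170 bp it was 1.06 (0.946 to 1.18). Near 180 bp the count was below the mean of its own surroundings, and the bins of 10 bp showed no series of separate peaks at whole repeats.

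The bands were also counted by score. Where both summits were at or above the median score of their list, 320 pairs lay near 180 bp and 130 near 360 bp, with ratios of 0.445 (0.393 to 0.502) and 0.989 (0.795 to 1.22) to the mean and of 0.660 and 1.09 to the geometric mean. Where at least 1 of them was below the median, the ratios were 0.626 (0.577 to 0.678) and 1.04 (0.904 to 1.21) to the mean and 0.848 and 1.19 to the geometric mean. On B. rapa the well-scored pairs gave 0.424 (0.366 to 0.491) and 1.11 (0.872 to 1.42) to the mean and 0.630 and 1.22 to the geometric mean. The band around 90 bp lies in the steep part of the curve, so the ratios at 180 bp say little about a small excess there.

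The shifts had no preferred side. The PEG1 summit lay at the higher coordinate in 2451 pairs and at the lower in 2449, so that 50.02% (48.6 to 51.4%) pointed upward along the scaffold. The share was between 45.4% and 51.3% in the 7 distance classes of 50 bp, and each interval included 50%. On B. rapa 1728 pairs pointed upward and 1778 downward, 49.3% (47.6 to 50.9%). Of its 7 distance classes, that over 400 and up to 450 bp had an interval without 50%, at 43.7% (37.7 to 49.96%). The direction of a scaffold is arbitrary and the strand of the genes was not used, so a preference relative to transcription would not be visible in these counts.

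Displaced summits were on the whole weaker than summits that kept their place. The control summits of displaced pairs had a median score of 12.3 (quartiles 6.63 and 20.7), percentile 37.5 of their list, and those of pairs within 150 bp had a median of 18.8, percentile 56.3. In PEG1 the medians were 18.4 (9.99 and 28.9), percentile 44.5, and 27.07, percentile 61.3. The range was wide in both lines, from 1.33 to 71.3 in the control and from 1.33 to 90.1 in PEG1. No displaced pair reached the top scores of the lists, 122.7 and 137.2. The B. rapa pairs had nearly the same medians, at percentile 36.1 in the control and percentile 44.6 in PEG1.

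Among paired summits the displaced share fell from class to class of score. The summits of a list were split at the quartiles of its scores. Among the control summits paired within 500 bp, 24.9% (23.9 to 25.99%) were displaced in the weakest class, 17.4% and 13.1% in the next classes, and 6.67% (6.17 to 7.20%) in the strongest. By PEG1 score the shares were 26.6% (25.3 to 27.9%), 18.7%, 13.7% and 7.40% (6.90 to 7.93%). Neighbouring classes did not overlap in their intervals in either line. Among all control summits, paired or not, the shares were 18.2%, 16.4%, 12.7% and 6.53%. Among all PEG1 summits the order was different: 11.7% (11.1 to 12.3%) in the weakest class, 16.2% (15.4 to 16.9%) and 13.1% (12.5 to 13.8%) in the next classes and 7.24% (6.75 to 7.76%) in the strongest. In the weakest PEG1 class 4462 of 10177 summits were paired within 500 bp. On B. rapa the share ran from 22.4% to 6.30% of the paired control summits, and over all PEG1 summits it was 10.4%, 15.01%, 12.7% and 6.46%.

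**Figure D2:**
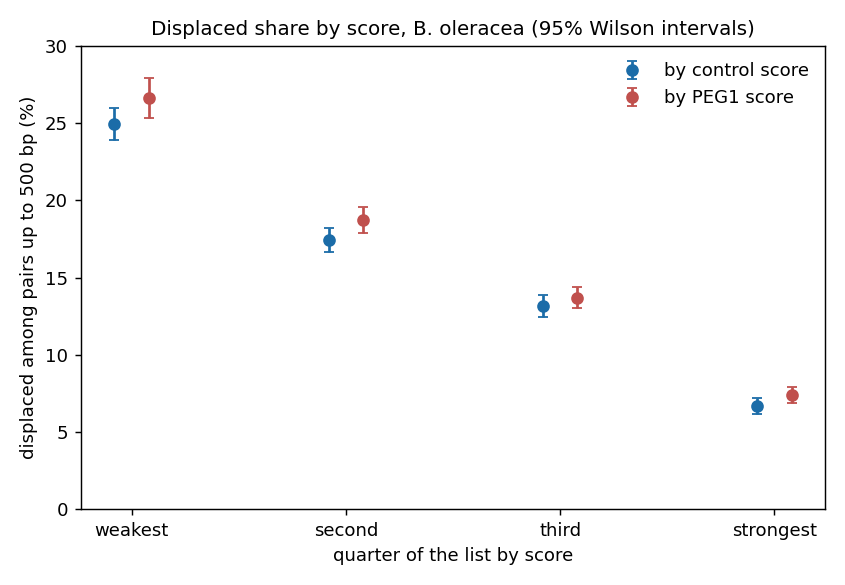
Percentage of displaced pairs among all pairs up to 500 bp on B. oleracea, by score class of the control list and of the PEG1 list, with 95% Wilson intervals as bars. The share falls from 24.9% to 6.67% by control score and from 26.6% to 7.40% by PEG1 score.

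The same gradient was found in the pairs within 150 bp, so it is not particular to large shifts. Pairs up to 500 bp were classed by the lower of their 2 percentiles. In the class up to percentile 25 the median distance of all pairs was 64 bp and that of pairs within 150 bp was 43 bp. Above percentile 90 these medians were 20 and 19 bp. Correspondingly, 1846 of 7519 pairs (24.6%) were displaced in the lowest class and 75 of 2414 (3.11%, 2.49 to 3.88%) in the highest. How far a displaced pair had moved hardly varied with score: the median shift of the displaced pairs was 243 bp in the lowest class, 250, 258.5 and 255 bp in the classes in between, and 246 bp in the highest. Score thus went with how many pairs were displaced. The rule itself confines the shifts of displaced pairs to over 150 and up to 500 bp. Over all pairs up to 500 bp, and within 150 bp, the distances were longer at low score, as given above. The number of reads behind a summit goes into its score, and its part in these distances was not tested.

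**Figure D3:**
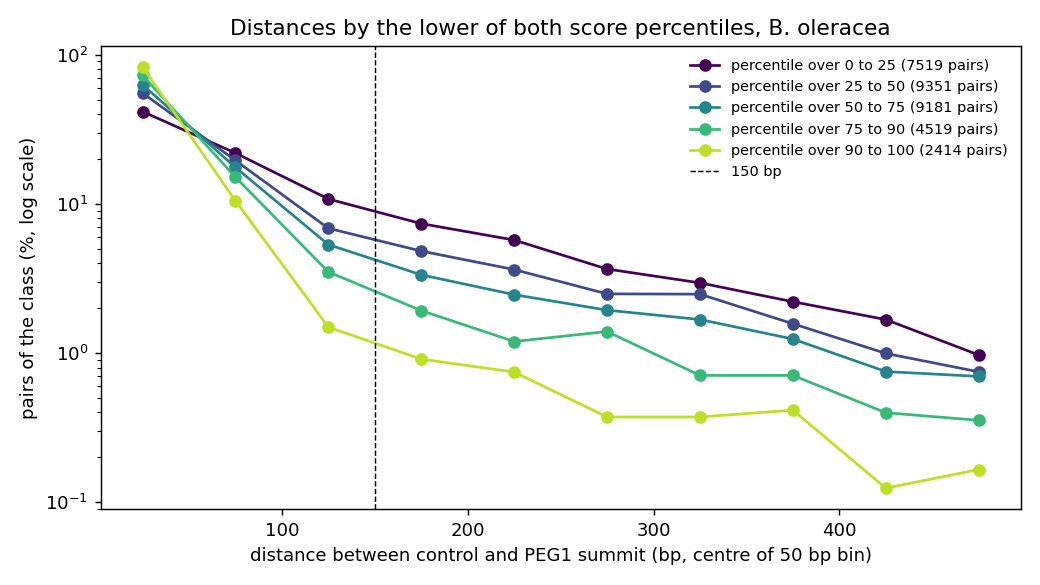
Percentage of the pairs of each class (log axis) against the distance between control and PEG1 summit in bins of 50 bp on B. oleracea, for 5 classes by the lower of both score percentiles. In the leftmost bin the highest-scored class is on top (1994 of 2414 pairs) and the lowest-scored at the bottom (3124 of 7519 pairs). Beyond 50 bp the order is reversed, with the lowest-scored class on top, and the classes run roughly parallel beyond 150 bp. The leftmost bin leaves out pairs with both summits at the same position, which are counted in the class totals.

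Within the rule the score changed little with distance. Over 150 and up to 200 bp the medians were percentile 37.2 in the control and percentile 42.7 in PEG1, and over 450 and up to 500 bp they were percentile 45.4 and percentile 50.8, the highest of the 7 classes. At the limits themselves, 31 pairs had the smallest shift the rule admits and 31 a shift of exactly 150 bp, with control medians at percentile 25.02 and percentile 42.4 and PEG1 medians at percentile 45.7 and percentile 42.7. At the upper limit 3 pairs had a shift of exactly 500 bp and 5 a shift of 1 bp more. The best-scored pair just inside the lower limit was on ERB29339 (949358 in the control, score 42.4, and 949207 in PEG1, score 48.4), and the one just outside on ERB29778 (272032, 47.2, and 272182, 37.95). Just inside the upper limit it was on ERB29525 (585733, 28.3, and 586233, 76.9), and just outside on ERB29518 (653478, 24.6, and 652977, 25.4).

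The members of a displaced pair mostly had similar standing in their lists. Over the 4900 pairs the percentiles of both lines had a Spearman correlation of 0.813, and over the 28084 pairs within 150 bp one of 0.854. These are correlations across sites of the same libraries. The PEG1 percentile was the higher one in 3135 pairs, 63.98% (62.6 to 65.3%), with a median difference of 5.26 points and quartiles of −4.55 and 15.8 points. In pairs within 150 bp it was higher in 60.4% (59.8 to 60.97%), with a median difference of 3.13 points. The PEG1 list is the longer one, and 4462 summits of its weakest class were paired within 500 bp, against 6507 in the weakest class of the control list. The part of list length in the percentile differences was not tested.

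Large differences in standing were found in a minority of pairs and were somewhat more common among displaced pairs. This contrast was not split by score. Pairs with a summit below the median score made up 69.6% of displaced pairs and 47.9% of pairs within 150 bp. The PEG1 percentile was more than 25 points higher in 487 displaced pairs, 9.94% (9.13 to 10.8%), against 7.88% (7.57 to 8.20%) of the pairs within 150 bp. The control percentile was more than 25 points higher in 159 displaced pairs, 3.24% (2.78 to 3.78%), against 2.32% (2.15 to 2.50%). Differences above 50 points were found in 17 displaced pairs in favour of PEG1 (0.347%, 0.217 to 0.555%) and in 3 in favour of the control (0.0612%, 0.0208 to 0.180%), against 51 (0.182%) and 5 (0.0178%) of the pairs within 150 bp. On B. rapa 12.7% of displaced pairs favoured PEG1 and 3.62% the control by more than 25 points, against 9.80% and 2.77% of pairs within 150 bp.

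**Figure D4:**
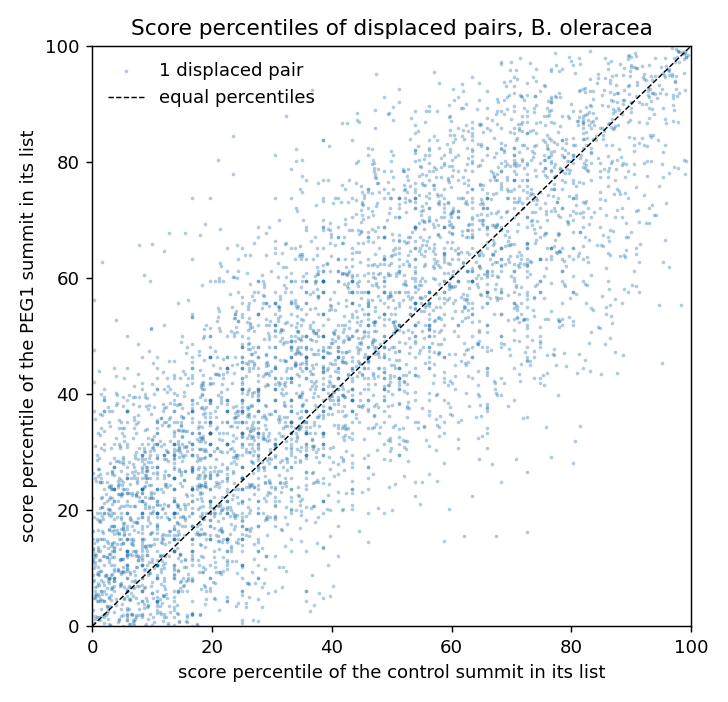
Score percentile of the PEG1 summit against that of the control summit, each within its own list, for the displaced pairs on B. oleracea, with a dashed line at equal percentiles. Most points lie in a broad band around the line, and 3135 of 4900 lie above it.

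The 5 pairs with the widest difference in favour of PEG1 are given as a description. On ERB29323 the control summit at 1513283 scored 2.16, percentile 1.60, and the PEG1 summit at 1513546 scored 28.02, percentile 62.8. On ERB29713 the control summit at 372896 scored 7.87 and the PEG1 summit at 372654 scored 42.7, a difference of 60.99 points. Differences of 59.3, 57.9 and 57.1 points followed on ERB29940 (47786 in the control and 47420 in PEG1), ERB29620 (25187 and 24791) and ERB29613 (475358 and 475751). These 5 PEG1 summits ranked between percentile 62.8 and percentile 84.4.

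In the opposite direction the control summit on ERB29356 at 371084 scored 25.8, percentile 72.6, and the PEG1 summit at 371406 scored 6.66, percentile 16.2. On ERB29829 a strong control summit at 208237 (46.1, percentile 95.07) was paired with a PEG1 summit at 208566 (18.99, percentile 45.4), 329 bp away. The other pairs of this kind were on ERB29324 (340768 and 340298), ERB29409 (252745 and 253071) and ERB29417 (273743 and 273295). The shifts of these 5 pairs ran from 322 to 470 bp, and those of the 5 pairs above that favour PEG1 from 242 to 396 bp.

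Displaced pairs stood in surroundings much like those of pairs that kept their place. The nearest other summit of the control list was a median of 3595 bp from the control member of a displaced pair (quartiles 1843 and 7385 bp), and 3727 bp (1871 and 7610 bp) in pairs within 150 bp. For the PEG1 list the medians were 3347 and 3381 bp. Within 10 kb of either side the median number of further control summits was 2 for both kinds of pair, and so was that of further PEG1 summits. The smallest distance between summits of one list was 288 bp in the control and 298 bp in PEG1, so neither list held 2 summits as close together as the members of a typical displaced pair. The member was the outermost control summit of its scaffold in 5.35% of displaced pairs (4.75 to 6.01%) and in 6.64% (6.36 to 6.94%) of pairs within 150 bp.

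A further summit of either line was found within 1000 bp of 856 displaced pairs, 17.5% (16.4 to 18.6%), and of 15.8% (15.4 to 16.2%) of pairs within 150 bp. Split by score, the shares of both kinds of pair lay closer together on B. oleracea. Among pairs with at least 1 summit below the median score, the share was 19.6% (18.3 to 20.9%) for displaced pairs and 19.4% (18.8 to 20.1%) for pairs within 150 bp. Among pairs with both summits at or above the median it was 12.7% (11.1 to 14.5%) and 12.4% (11.9 to 12.98%). Pairs with a summit below the median made up 69.6% of displaced pairs and 47.9% of the others. On B. rapa the shares were 19.3% (18.01 to 20.6%) against 16.4% (15.9 to 16.9%) before the split. In the same 2 groups they were 20.98% against 19.6% and 15.2% against 13.4%, with overlapping intervals.

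Summits that could be read as a split or joined domain were uncommon. In 362 displaced pairs, 7.39% (6.69 to 8.15%), the control summit lay between 2 PEG1 summits that were each within 1000 bp. In 337 pairs, 6.88% (6.20 to 7.62%), the PEG1 summit lay between 2 control summits in the same way. The corresponding shares in pairs within 150 bp were 6.17% (5.89 to 6.45%) and 5.72% (5.45 to 5.996%). These shares were not split by score, and displaced pairs more often held a summit below the median score.

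Displaced pairs did not gather along the scaffolds. With all pairs up to 500 bp put in order, the next pair was displaced after 660 of 4754 displaced pairs, 13.9% (12.9 to 14.9%), and after 14.9% (14.6 to 15.3%) of all pairs. Where neighbours were both displaced they lay a median of 7015 bp apart, and 329 of the 660, 49.8% (46.05 to 53.7%), moved the same way. Of 4240 runs of successive displaced pairs, 3662 held a lone pair, 508 held 2, 60 held 3 and 9 held 4 pairs. On B. rapa the next pair was displaced after 14.5% (13.3 to 15.7%) of displaced pairs and after 13.8% of all pairs, and 51.7% (47.3 to 56.0%) of displaced neighbours moved the same way. 

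The longest run held 6 pairs on ERB29337, with control summits from 1772346 to 1800392. Its shifts were 350, 159, 377, 185, 323 and 454 bp, upward in the leading 2 pairs and downward in the other 4, and its control summits ranked from percentile 7.37 to percentile 76.0. Of the 9 runs of 4, the 4 with the highest mean percentile are named. The best-scored was on ERB29592, from 121142 to 179188, where all 4 PEG1 summits lay at lower coordinates, by 369, 311, 310 and 154 bp. Its strongest pair had a control summit at 121142 (score 33.9) and a PEG1 summit at 120773 (57.5). The run on ERB29573, from 61860 to 89545, had shifts of 252, 299, 287 and 280 bp in alternating directions. The run on ERB29953, from 184465 to 200472, alternated as well, with 334, 314, 357 and 319 bp. On ERB29408, from 870539 to 895240, the leading 3 pairs moved upward by 326, 271 and 284 bp and the last downward by 232 bp. That run held a strong control summit at 888931 (score 61.3, percentile 98.8) whose PEG1 partner at 889215 scored 38.8, percentile 80.3. In 4 of these 5 named runs the direction changed from pair to neighbouring pair at least once.

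The pairs were spread over the assembly in step with the summits. Of the 1244 scaffolds with control summits, 887 held a displaced pair, and the 357 without one held at most 28 control summits each. The most pairs were on the scaffolds with the most summits: 63 of 447 control summits on ERB29322, 58 of 411 on ERB29325 and 52 of 404 on ERB29323, or 14.1%, 14.1% and 12.9%. Across the 1244 scaffolds the number of displaced pairs and the number of control summits had a Spearman correlation of 0.892, given as a description, since a longer scaffold holds more of both.

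On the 220 scaffolds with at least 50 control summits the displaced share had a median of 12.9%. Its SD between scaffolds was 3.77 percentage points, and binomial counting error alone gives 3.82 points for scaffolds of these sizes. The highest shares were 28.0% on ERB29641 (14 of 50 control summits, 17.5 to 41.7%), 24.5% on ERB29437 (36 of 147, 18.2 to 32.03%) and 24.1% on ERB29573 (20 of 83, 16.2 to 34.3%), which also carried a run of 4 pairs. The lowest were 2.52% on ERB29388 (3 of 119, 0.861 to 7.15%), 3.77% on ERB29576 (2 of 53, 1.04 to 12.8%) and 4.35% on ERB29475 (3 of 69, 1.49 to 12.02%). On the 11 B. rapa pseudochromosomes the share ran from 11.97% to 14.4%.

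**Figure D5:**
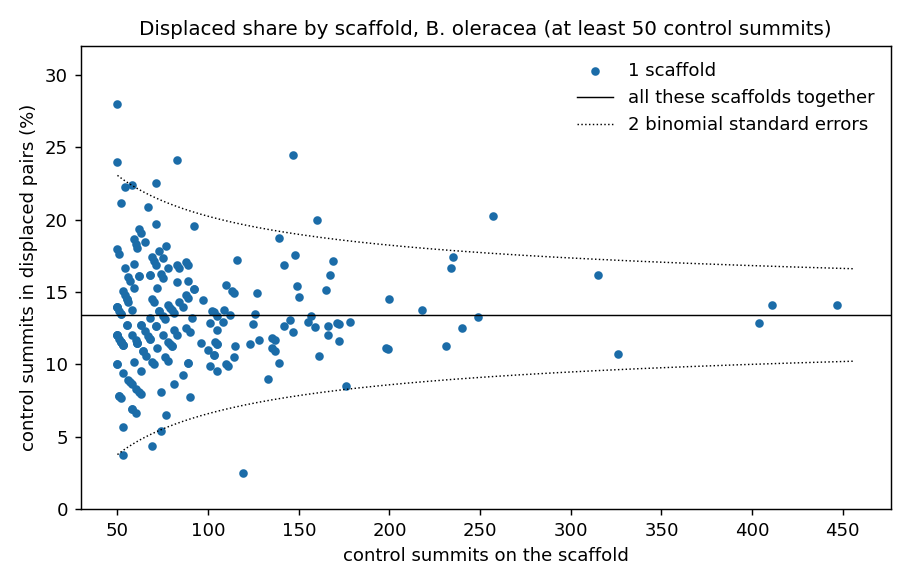
Percentage of control summits in displaced pairs against the number of control summits, 1 point for each of the 220 B. oleracea scaffolds with at least 50 control summits, with the pooled share of 13.4% as a line and 2 binomial standard errors on either side dotted. The points narrow towards the line as scaffolds hold more summits, and ERB29437 (24.5%) and ERB29388 (2.52%) are among those outside the dotted lines.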

How the data were processed

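Per the submitters' processing notes, the authors called peaks in MACS2 (version 2.0). How reads were aligned, filtered and assigned between the references, and which background the caller used, is not given in the sources at hand. The deposited lists give a summit position and a −log10 score per peak. Whether the score is a p-value or a q-value is not stated. Per the sequence names, the scaffolds are the BGI V2 scaffolds of B. oleracea TO1000, shortened here to their closing code, and the B. rapa sequences are the BGI V1 pseudochromosomes of BR5307. Read depth is unknown and limits how exactly a summit is placed.

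Nearest summits were found in both directions, and mutual pairs at over 150 and up to 500 bp were kept. A pair at equal distance to both sides took the lower coordinate. Shares carry 95% Wilson intervals, counts exact Poisson intervals and band ratios exact binomial intervals. Pairs were named by fixed rules: the 10 with the highest lower percentile, the 5 with the widest percentile difference each way, the 5 longest runs (ties by mean percentile), scaffolds with most pairs or extreme shares, the best pair at each limit and in the fullest bin. The members and rules were chosen with earlier results of these data known. Alternatives were other limits, score cuts, list lengths, repeats and bands. Matching was tested on simulated data made from well-separated control summits, so competition between close summits was not covered. Software was matplotlib 3.10.9, SciPy 1.17.1, pandas 2.3.3, NumPy 2.4.6 and Python 3.11.15.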

Additional observations from a re-analysis of the deposited data

How the results depend on the processing

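Of 99 alternative values, 56 stayed within the counting interval of the reported value (for the number of pairs, within 1.5 times) and 43 did not. No paired analysis was possible because each line has 1 library, and for the same reason no library could be left out. The share of pairs pointing upward stayed within its interval under every alternative run. Moving a limit changes the members by construction. Cuts that drop summits also remove candidates for a further summit. The share over all pairs that is followed by a displaced pair was not computed for the alternatives, so that value is missing beside theirs. With the lower limit at over 100 bp, the share of control summits was 19.3%, the median shift 199 bp, the share followed by a displaced pair 20.97% and the B. rapa share 18.5%, and with over 200 bp they were 9.57%, 295 bp, 9.02% and 9.07%. With the upper limit at 400 bp they were 12.0%, 235 bp, 12.6% and 11.1%, and with 1000 bp 15.5%, 272 bp, 16.03% and 14.5%. With nearest summits, mutual or not, the share was 13.8%, the share with a further summit 19.6% and the B. rapa share 13.2%. With summits at or above the median score of their list, there were 1492 pairs, 8.20% of control summits, with a median shift of 257 bp. Their percentiles, taken in the full lists, were 70.4 in the control and 73.2 in PEG1. The cut alone keeps both in the upper part of their lists. A further summit was near 3.28% of these pairs and a displaced pair came next after 9.50%. The ratio at 180 bp was 0.445 and the B. rapa share 7.40%. With a PEG1 list as short as the control list the share was 12.4% and the B. rapa share 11.5%. The percentiles, taken in the full lists and not in the shortened one, were 41.1 and 46.998. The share with a further summit was 14.8% and that followed by a displaced pair 12.8%. With summits that had no other of their list within 1000 bp the share was 13.02% and the B. rapa share 12.07%. The PEG1 percentile, in the full list, was 45.9. The share with a further summit was 2.60%, where the cut itself removes close summits of the same list. Scaffolds with at least 50 control summits held 2931 pairs. A repeat of 170 bp gave a ratio of 0.522 at 1 repeat. The geometric mean, chosen after seeing the data, gave 0.782 and 1.16. A further summit within 2000 bp was found for 36.2%. Depth is unknown, so how exactly either library places a summit cannot be read from these lists.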
